A study of Mus musculus with 24 samples.

Results

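The microRNAs mmu-miR-10a, mmu-miR-10b and mmu-miR-196b, whose genes lie inside mouse Hox clusters, each showed a different pattern across 3 mouse tumour cell lines and primary bone marrow. They were chosen by assay name, as 3 of the 584 miRNA assays of the study. PYS is a teratocarcinoma line that grows attached with an epithelial-like form, L-1210 a lymphocytic leukaemia line, and M1 a myeloid leukaemia line that grows in suspension. The lines were harvested untreated at passage 3. CT-BM is untreated primary marrow, washed out of the femur and tibia of mice, and no strain, sex or age is given for the animals. Its growth protocol describes a suspension culture and the series title speaks of stem cells, so the state of the marrow cells at harvest is unclear. Each group had 3 replicates, 12 in all. They are not stated to be separate cultures or animals, so the p-values speak to the spread among these samples alone, and that spread may be technical.

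Hox genes encode transcription factors that set position along the body axis, and several are also active in blood progenitors, where they fall with differentiation. Each mammalian Hox cluster carries miRNA genes among its protein-coding genes, and these miRNAs are often transcribed together with their neighbours. The miR-10 and miR-196 families repress Hox messages among other targets, and miR-196b is known for high levels in leukaemias with raised HOXA expression.

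The mature sequences are shown because the miR-10 pair differ by a single base while their assays gave different results. They come from RefSeq (GRCm38.p6), run 5′ to 3′, and have the seed, bases 2 to 8, in capitals. All 3 assays matched an entry by name with the 5p arm.
mmu-miR-10a-5p: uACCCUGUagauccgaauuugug
mmu-miR-10b-5p: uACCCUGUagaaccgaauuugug
mmu-miR-196b-5p: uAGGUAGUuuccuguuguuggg
mmu-miR-196a-5p: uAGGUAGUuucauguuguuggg
miR-10a and miR-10b share their seed with no other mature mouse miRNA of the table, and their one difference, counted from 1 at the 5′ end, is U12A (miR-10a base first). miR-196b and miR-196a likewise share a seed that no other entry has, and differ by C12A (miR-196b base first). The guide strand of miR-196a was not among the assays analysed here.

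The mature miR-10a-5p lies at chr11:96317186-96317208 on the plus strand. Its gene Mir10a falls within the annotated span of Hoxb3 and 993 bases from Hoxb4. The mature miR-10b-5p lies at chr2:74726074-74726096 on the plus strand, and its gene Mir10b within the spans of both Hoxd3 and Hoxd4. The mature miR-196b-5p lies at chr6:52230129-52230150 on the minus strand. Its gene Mir196b stands between Hoxa9, 2711 bases away, and Hoxa10, 1032 bases away. The annotation used gives gene spans but not whether these places are exonic or intronic.

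MiRNAs were measured by TaqMan PCR after reverse transcription, on a pair of array cards (A and B) per replicate. Each well gives a threshold cycle (Ct), which is about 1 lower for each doubling of template, up to 40 cycles. Wells that did not amplify, or passed the threshold later than cycle 35, were taken as not detected. A level is the negative delta Ct: the average Ct of 3 control RNAs of the card (MammU6, snoRNA135 and snoRNA202) minus the Ct of the assay, on a log2 scale. The median SD of a level between replicates was 0.268 in PYS, 0.377 in L-1210, 0.296 in M1 and 0.239 in CT-BM.

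Marker miRNAs were set against the labels. Marker counts leave out replicates that had no value. All 13 listed markers of embryonic stem cells were detected in every PYS replicate. In every replicate with a value, 4 of 13 were detected in L-1210, 3 in M1 and 2 in CT-BM. Some of these had a value in only 2 replicates. Those of L-1210 and M1 were near the limit of 35, at mean Ct 32.7 to 34.9. The blood-wide miR-142-3p averaged Ct 31.99 in PYS, 17.8 in L-1210, 17.5 in M1 and 17.5 in CT-BM. Scaled to the control RNAs, its mean level was −18.12 in PYS, −3.99 in L-1210, −5.07 in M1 and −2.72 in CT-BM. The granulocyte miRNA miR-223 averaged Ct 31.3 in PYS, 26.2 in L-1210, 14.7 in M1 and 13.5 in CT-BM. The mean level of miR-223 was −17.48 in PYS, −12.35 in L-1210, −2.22 in M1 and 1.33 in CT-BM. The lymphocyte miRNA miR-150 was latest in the lymphocytic line, at a mean Ct of 25.0 in PYS, 26.3 in L-1210, 19.9 in M1 and 16.6 in CT-BM. CT-BM also gave signal for 5 of 6 mesenchymal and stromal markers, against 2 in each line. Of the 4 muscle markers, 3 gave signal in CT-BM and in PYS, 2 in L-1210 and 1 in M1. Of 5 epithelial markers, 4 were detected in PYS and 5 in every other group. Both endothelial markers were detected in all groups. Of 3 neuron markers, 2 were detected in each line and 3 in CT-BM.

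miR-10a was highest in L-1210, lower in CT-BM, lower again in M1 and not detected in PYS. It crossed the threshold in none of the 3 PYS replicates. Its Ct was 20.8, 20.3 and 19.8 in L-1210 replicates 1 to 3. In M1 it was 28.5, 28.0 and 27.9. In CT-BM it was 24.0, 25.0 and 24.6. The plot shows the unscaled Ct of every replicate. Differences between groups were common in these data. Of all assays tested, 56.2% to 78.5% were called in each pair of groups, as defined below. The mean level was −6.48 ± 0.47 in L-1210, −15.68 ± 0.06 in M1 and −9.71 ± 0.21 in CT-BM (SD, n = 3 each).

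miR-10b was detected in L-1210 alone. Its Ct there was 28.0, 27.2 and 25.4 in replicates 1 to 3, a spread of levels (−14.20, −12.95 and −12.03) wider than that of miR-10a. All 9 replicates of PYS, M1 and CT-BM gave no signal. Where miR-10a was itself at Ct 24.0 to 25.0, in CT-BM, the miR-10b assay stayed undetected. How far the miR-10b assay reads miR-10a was not tested beyond that.

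miR-196b was detected in all 12 replicates and ran in another order, highest in M1, then CT-BM, PYS and L-1210. Its Ct was 24.6, 24.0 and 24.0 in PYS. In L-1210 it was 31.4, 33.8 and 33.0, within 4 cycles of the limit of detection. In M1 it was 18.0, 16.8 and 17.3. In CT-BM it was 21.0, 21.7 and 21.4. The shares of all assays called between groups, given above, apply here too. The lowest and highest groups were the leukaemia lines. The mean level was −10.33 ± 0.48 in PYS, −18.89 ± 1.15 in L-1210, −4.92 ± 0.33 in M1 and −6.59 ± 0.06 in CT-BM (SD, n = 3 each).

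**Figure D1:**
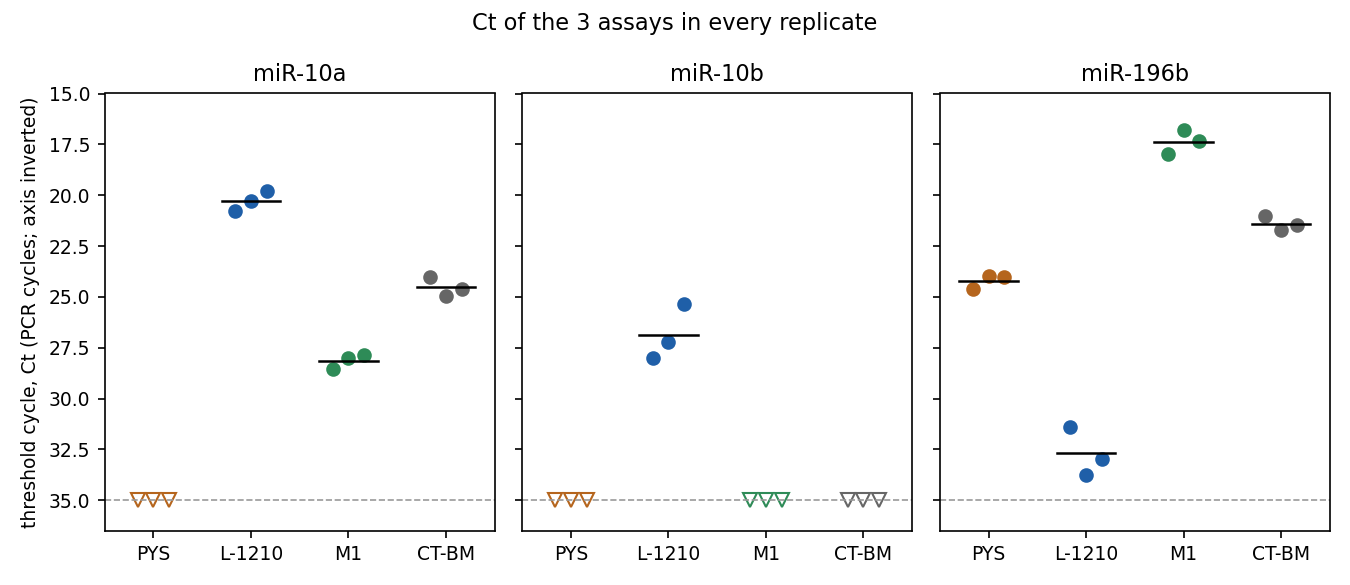
Threshold cycle (Ct, PCR cycles, inverted so that more template is higher) of miR-10a, miR-10b and miR-196b in each of the 3 replicates of PYS, L-1210, M1 and CT-BM. Filled points are detected replicates, bars their means, and open triangles on the dashed line at 35 are replicates without detection: miR-10b has filled points in L-1210 alone, and miR-196b is latest there.

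Each line was then compared with CT-BM, the comparison named in the title of the series, by limma with Benjamini-Hochberg adjustment over all assays tested in that comparison. A change was called where the adjusted p was under 0.05 and the fold 2 or more. Because CT-BM is a bulk sample, fewer cells of a type and less of a miRNA per cell cannot be told apart in these differences. Markers of other cell types moved with that group. The summed level of the 6 mesenchymal and stromal markers was −13.49 to −10.44 across the lines, against −6.28 to −5.69 in CT-BM, with miR-199a-5p undetected in all groups. The summed level of the 4 muscle markers was −19.66 to −13.56 across the lines, against −4.39 to −3.79 in CT-BM, with miR-133b undetected in all groups. The value of −19.66 is from an L-1210 replicate that had no miR-133a value, and the lowest sum in M1 was −18.53. Of the erythroid markers, miR-486 was detected in CT-BM alone, and miR-451 averaged Ct 27.4 in PYS and 20.8 in CT-BM. The part of these cells in the results was not tested. The 3 comparisons share the CT-BM replicates.

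In PYS, miR-10a and miR-196b were both lower than in CT-BM, 2 members of 2 tested. The background in that comparison was 78.5% of 362 assays called, with 38.7% of all tested lower and 39.8% higher, so calls were common. miR-10a was at least 2740-fold lower in PYS (log2 fold change −11.42 ± 0.27 SE, limma adjusted p = 3.52e-13), a bound set by the Ct limit of 35 (−8.42 with a limit of 32, and −9.91 with MammU6 alone). miR-196b was 13.4-fold lower in PYS (−3.75 ± 0.46, limma adjusted p = 5.31e-06), with −2.24 when scaled to MammU6 alone, still called. miR-10b was undetected in both groups and was not tested.

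In L-1210, both miR-10 members were higher than in CT-BM and miR-196b was lower, so 3 of 3 were called against a background of 68.2% of 333 assays, 22.5% higher and 45.6% lower. miR-10a was 9.40-fold higher in L-1210 (3.23 ± 0.27, limma adjusted p = 1.60e-07). The size of that difference depended on the control RNA, with a log2 fold change of 1.60 with snoRNA202 alone and 4.98 with MammU6 alone, both called. miR-10b was at least 140-fold higher in L-1210 (7.13 ± 0.44, limma adjusted p = 8.68e-09), a bound that was 5.50 with snoRNA202 alone and 4.13 at a Ct limit of 32. miR-196b was 5048-fold lower in L-1210 (−12.30 ± 0.46, limma adjusted p = 5.92e-11). That value was −12.97 without L-1210 replicate 1, and −13.94 to −10.56 over the scalings.

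In M1 the directions were turned: miR-10a was lower than in CT-BM and miR-196b was higher. Both tested members were called, against a background of 69.5% of 325 assays, 25.2% higher and 44.3% lower. miR-10a was 62.5-fold lower in M1 (−5.97 ± 0.27, limma adjusted p = 3.09e-10), with −2.57 under quantile normalization, still called. miR-196b was 3.17-fold higher in M1 (1.66 ± 0.46, limma adjusted p = 0.00588), the smallest difference of any member. That call did not hold with snoRNA202 as the only control (1.35, limma adjusted p = 0.0620) or in limma's treat test against a 2-fold change (adjusted p = 0.154). Over the alternatives run its adjusted p ranged from 0.000224 to 0.154, and its log2 fold change over the scalings from 1.35 to 2.22.

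**Figure D2:**
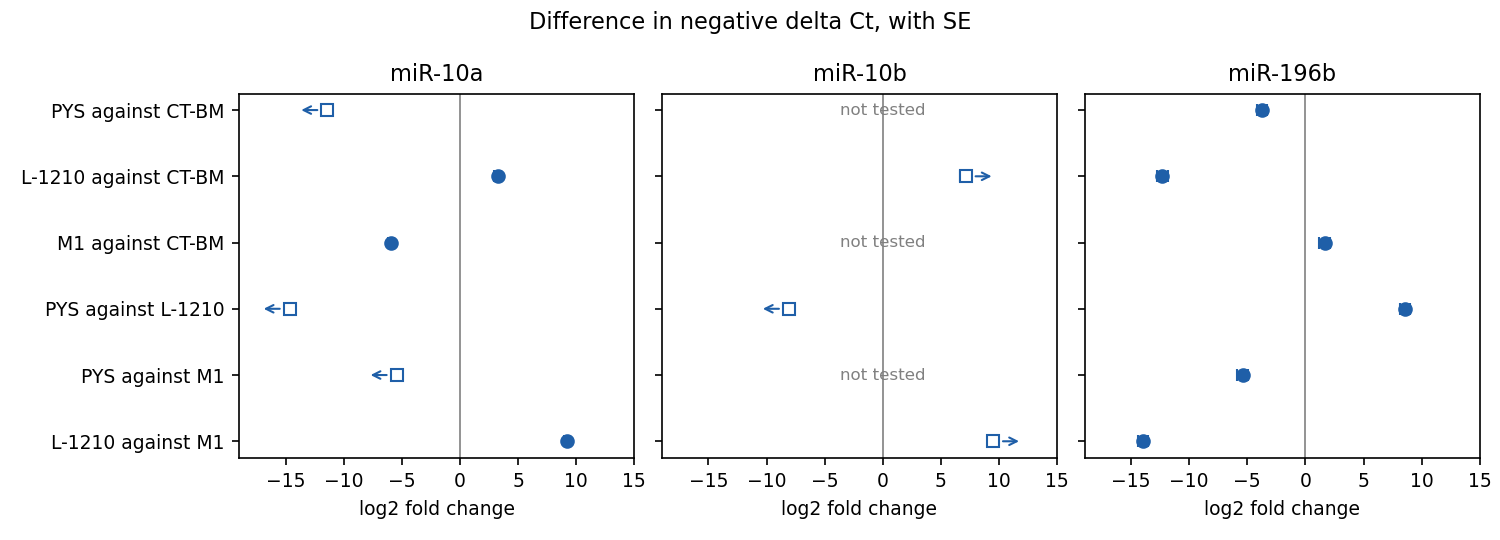
Log2 fold changes (first-named group over second, with SE from limma) of the 3 miRNAs in all 6 pairs of groups. Open squares with arrows are bounds set by the Ct limit of 35 and cells marked not tested had no detection in either group; miR-10a and miR-196b lie on opposite sides of 0 in L-1210 against CT-BM, M1 against CT-BM, PYS against L-1210 and L-1210 against M1.

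The leukaemia lines differed in all 3 miRNAs. All 3 were called in L-1210 against M1, where the background was 56.2% of 304 assays, 25.3% higher and 30.9% lower. miR-10a was 588-fold higher in L-1210 (9.20 ± 0.27, limma adjusted p = 3.74e-12). miR-10b was at least 718-fold higher in L-1210 (9.49 ± 0.44, limma adjusted p = 5.35e-10). miR-196b was 15993-fold lower in L-1210 (−13.97 ± 0.46, limma adjusted p = 1.47e-11), and −14.63 without L-1210 replicate 1. Over the scalings miR-10a was 7.45 to 10.76, miR-10b 8.17 to 11.04 and miR-196b −15.28 to −12.41, all called. The bound for miR-10b was 6.49 at a Ct limit of 32. The lymphocytic line had both miR-10 members and a late miR-196b signal, and the myeloid line had an early miR-196b signal, a late miR-10a signal and no detected miR-10b.

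PYS differed from each leukaemia line in a way of its own. Against L-1210, where 73.9% of 349 assays were called, 46.1% higher and 27.8% lower, all 3 members were called. miR-10a was at least 25762-fold lower in PYS (−14.65 ± 0.27, limma adjusted p = 2.50e-14) and miR-10b at least 269-fold lower (−8.07 ± 0.44, limma adjusted p = 8.59e-10). miR-196b was 376-fold higher in PYS (8.56 ± 0.46, limma adjusted p = 7.29e-10), and 9.22 without L-1210 replicate 1. Over the scalings miR-10a was −15.46 to −13.61, miR-10b −8.88 to −7.03 and miR-196b 7.36 to 9.60, all called. At a Ct limit of 32 the bounds were −11.65 for miR-10a and −5.07 for miR-10b. Against M1, where 73.5% of 340 assays were called, 46.2% higher and 27.4% lower, both tested members were lower in PYS. miR-10a was at least 43.8-fold lower in PYS (−5.45 ± 0.27, limma adjusted p = 3.36e-10) and miR-196b 42.5-fold lower (−5.41 ± 0.46, limma adjusted p = 1.19e-07). With MammU6 alone these were −4.13 for miR-10a and −4.09 for miR-196b, and the bound for miR-10a was −2.45 at a Ct limit of 32, all still called.

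All neighbours in the order of miR-196b levels (M1, CT-BM, PYS, L-1210) and of miR-10a levels (L-1210, CT-BM, M1, PYS) therefore differed beyond their spread, with the limits given for M1 against CT-BM. The control RNAs themselves differed between groups. MammU6 on card A averaged Ct 10.6 in PYS, 10.8 in L-1210, 7.91 in M1 and 10.1 in CT-BM. snoRNA202 averaged 14.3 in PYS, 13.2 in L-1210, 13.2 in M1 and 15.9 in CT-BM. The choice of scaling moved the median log2 fold change of all tested assays by −1.65 to 1.87 in L-1210 against CT-BM and by −0.44 to 1.06 in M1 against CT-BM. It moved that median by −0.92 to 1.76 in PYS against CT-BM. Relative to that median, miR-10a was higher by 3.93 to 4.47 in L-1210 over the 7 scalings. Also relative to it, miR-196b was higher in M1 by 1.58 to 2.38. No member changed direction under any scaling.

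**Figure D3:**
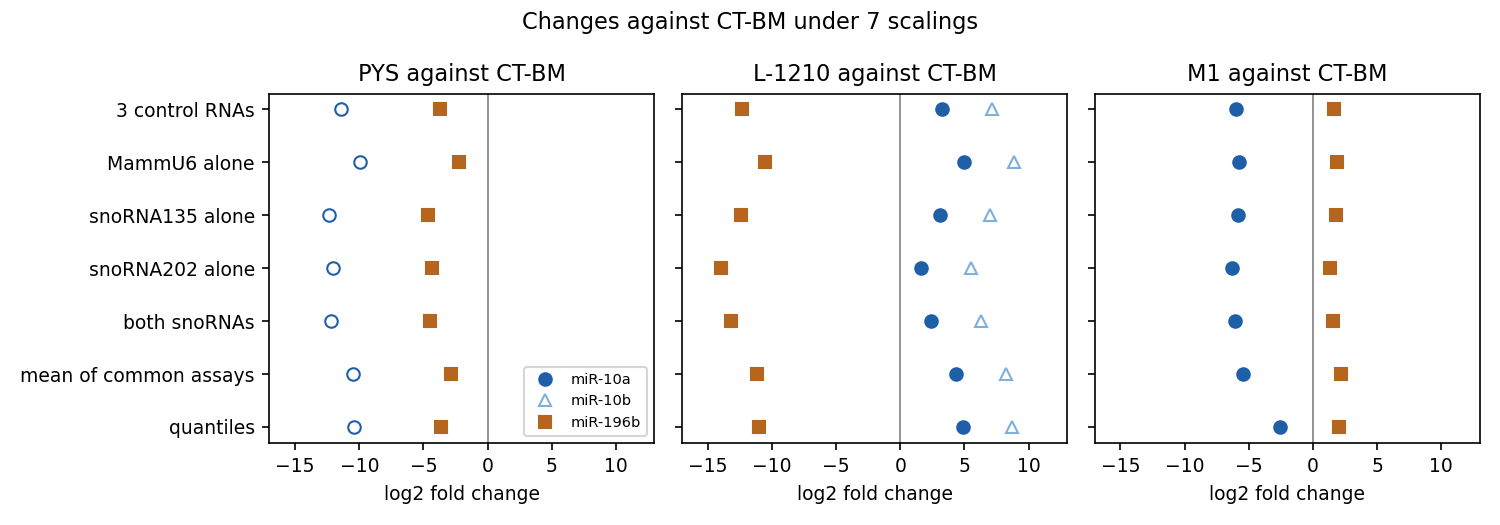
Log2 fold changes of the 3 miRNAs in PYS, L-1210 and M1 against CT-BM (columns) under 7 scalings (rows), with open markers for bounds set by the Ct limit. Points shift along the axis with the control RNA but none crosses 0; miR-10a in M1 moves most under quantile normalization, to −2.57.

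The Ct difference between 2 assays on the same card of one replicate needs no control RNA. The difference of miR-196b minus miR-10a was at most −10.4, −11.03 and −10.98 cycles in PYS, where miR-10a was undetected. It was 10.6, 13.5 and 13.2 cycles in L-1210 replicates 1 to 3. It was −10.5, −11.2 and −10.5 cycles in M1, and −2.96, −3.26 and −3.15 cycles in CT-BM. The differences in L-1210 lay above those in every other replicate. The groups differed in an exact permutation test of the F statistic over 369600 assignments of the 12 replicates, with the PYS bounds taken as values (p = 0.000649, adjusted p = 0.000974 over 3 pairs of members). The value 0 has no meaning here, since assays may amplify with different efficiency, so that the comparison is between groups and not between miRNAs.

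The difference of miR-10b minus miR-10a was 7.24, 6.93 and 5.57 cycles in L-1210. In M1 it was at least 6.47, 7.01 and 7.13 cycles, and in CT-BM at least 10.997, 10.03 and 10.4 cycles. The bounds of M1 overlap the L-1210 values, so a miR-10b signal as far behind miR-10a as in L-1210 could have lain near or past the limit in M1. In CT-BM the bounds exceed every L-1210 value by more than 2 cycles. All values of M1 and CT-BM are bounds, so no test of this difference is given. The difference of miR-196b minus miR-10b was 3.36, 6.54 and 7.59 cycles in L-1210. It was at most −10.4 cycles in PYS, at most −17.01 in M1 and at most −13.3 in CT-BM, all bounds in which miR-10b was undetected, and no test of it is given either.

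**Figure D4:**
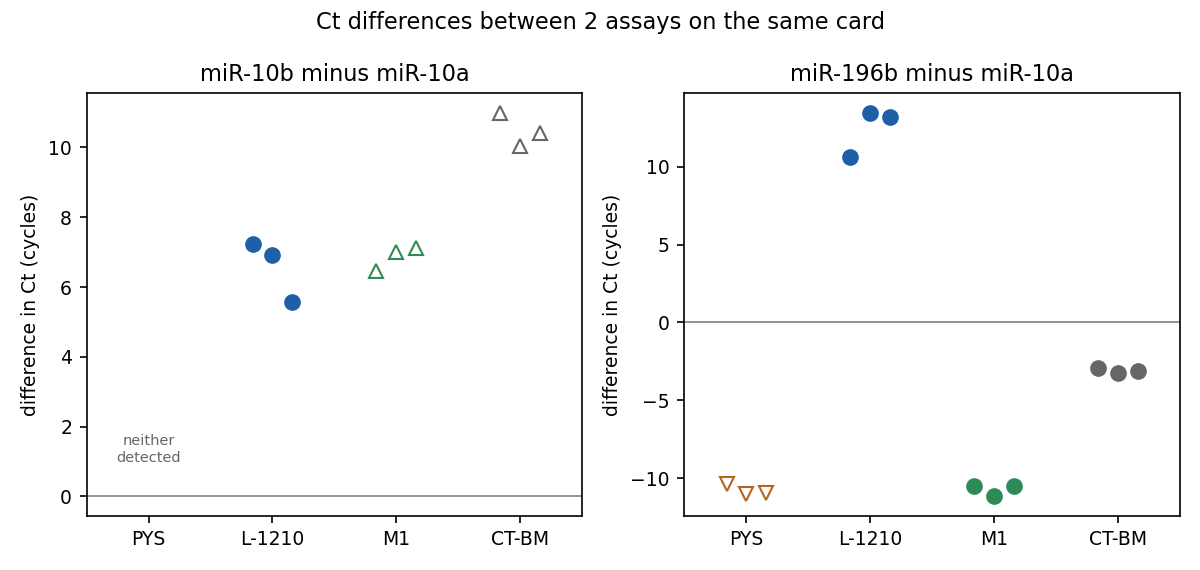
Ct differences (cycles) between 2 assays on card A in each replicate of PYS, L-1210, M1 and CT-BM: miR-10b minus miR-10a on the left and miR-196b minus miR-10a on the right. Filled points have both assays detected, open upward triangles are lower bounds and open downward triangles upper bounds. On the right, L-1210 lies above every other group.

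Other miRNA products of the Hox clusters gave little signal. The star strands miR-10a* and miR-10b*, the opposite arms of the miR-10 hairpins, and both arms of miR-615, from the Hoxc5 gene, were undetected in every replicate of every group. miR-10a* was thus undetected in L-1210 although its guide was at Ct 19.8 to 20.8. Of the 5 companion assays, miR-196a*, the star strand of miR-196a, was the one with signal. Its Ct was 29.2, 28.7 and 29.3 in PYS. In L-1210 it was 33.0 and 31.4 in replicates 2 and 3, with replicate 1 absent. In M1 it was 32.9, 31.0 and 29.6, and in CT-BM 32.4, 31.8 and 33.1. miR-196a* was 4.36-fold higher in PYS than in CT-BM (2.12 ± 0.57, limma adjusted p = 0.00410), 11.8-fold higher than in L-1210 (adjusted p = 0.000223) and 6.58-fold higher than in M1 (adjusted p = 0.000786). It was called in none of the pairs without PYS, with log2 fold changes of −1.44, −0.59 and −0.85. So miR-196a* was highest in PYS, whereas miR-196b was highest in M1. The fits of miR-196a*, and of the rno-miR-196c, miR-99 and miR-100 assays below, rest on the 3 control RNAs. Other scalings were not examined for them. In PYS against CT-BM, scaling moved the median of all assays by −0.92 to 1.76.

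A rat-named assay, rno-miR-196c, gave the same order of groups as miR-196b. Its Ct was 23.3, 22.5 and 23.0 in PYS and 28.5, 29.96 and 28.8 in L-1210. It was 17.5, 16.7 and 17.0 in M1 and 21.1, 21.7 and 21.5 in CT-BM. The gap between the assays was not constant: the Ct of rno-miR-196c minus that of miR-196b was −2.85, −3.80 and −4.15 cycles in L-1210, and 0.060, −0.020 and 0.074 cycles in CT-BM. rno-miR-196c was 405-fold lower in L-1210 than in CT-BM (−8.66 ± 0.26, limma adjusted p = 6.32e-12), against 5048-fold for miR-196b. It was 4.04-fold higher in M1 than in CT-BM (2.01 ± 0.26, limma adjusted p = 1.53e-05) and 5.40-fold lower in PYS (−2.43 ± 0.26, limma adjusted p = 1.64e-06). Which mature miRNA this assay reads in mouse RNA was not tested, and the sequences of the primers were not used here.

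The miR-99 and miR-100 miRNAs are relatives of miR-10 outside the Hox clusters. Their sequences are shown for the stretch they share with miR-10a or, for miR-99b, with miR-10b. Only the seed is in capitals (RefSeq, GRCm38.p6, 5′ to 3′).
mmu-miR-99a-5p: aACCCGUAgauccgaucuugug
mmu-miR-99b-5p: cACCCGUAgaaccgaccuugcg
mmu-miR-100-5p: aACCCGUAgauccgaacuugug
From base 7 of miR-10a and base 6 of miR-100, 11 bases in a row are the same, although the seeds differ. From the same positions the run is 10 bases for miR-10a with miR-99a, and for miR-10b with miR-99b. Of the 5 assays of these relatives, 0 were higher and 5 lower in L-1210 than in CT-BM, with a median log2 fold change of −7.02 against −0.82 over all assays tested. In M1 all 5 were lower than in CT-BM too, with a median of −12.45 against −0.59. In PYS, 2 were higher and 2 lower than in CT-BM, near the 39.8% higher and 38.7% lower of all assays, with a median of −0.58 against 0.08. The shares of all assays lower than in CT-BM were 45.6% in L-1210 and 44.3% in M1.

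miR-99b had a Ct of 18.3, 17.7 and 18.4 in PYS and of 24.0, 24.6 and 24.7 in CT-BM. It was not detected in any replicate of L-1210 or M1, and was 40.4-fold higher in PYS than in CT-BM (5.34 ± 0.26, limma adjusted p = 3.96e-10). miR-99a was likewise undetected in both leukaemia lines, and its Ct was 25.0, 24.0 and 24.7 in PYS and 24.8, 25.0 and 24.9 in CT-BM. The difference in miR-99a between PYS and CT-BM did not pass the test (−0.58 ± 0.28, limma adjusted p = 0.0737). miR-100 had a Ct of 24.3, 23.2 and 24.6 in PYS, 26.9 and 25.3 in L-1210 replicates 2 and 3, and 22.2, 23.0 and 22.8 in CT-BM, with no signal in M1. miR-100 was 21.8-fold lower in L-1210 than in CT-BM (−4.45 ± 0.31, limma adjusted p = 8.09e-08), with L-1210 replicate 1 absent from the fit. The star strand miR-99b* was detected in all 12 replicates, at a mean Ct of 21.8 in PYS, 28.8 in L-1210, 28.0 in M1 and 25.2 in CT-BM. It was 4.39-fold higher in PYS than in CT-BM (2.13 ± 0.47, limma adjusted p = 0.000926), 35.6-fold lower in L-1210 (adjusted p = 4.87e-07) and 25.5-fold lower in M1 (adjusted p = 1.52e-06). The guide strands miR-99a and miR-99b were thus undetected in L-1210, where miR-10a was highest, while miR-99b* gave a late signal there.

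**Figure D5:**
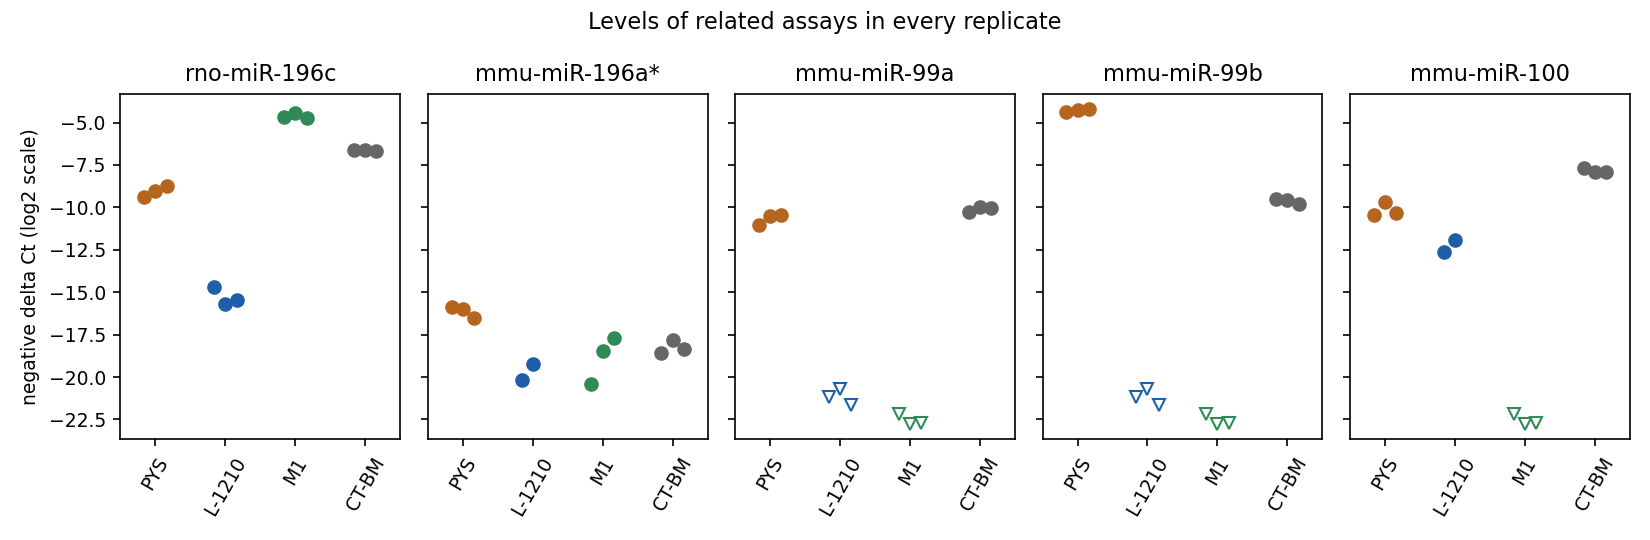
Levels (negative delta Ct, log2 scale) of rno-miR-196c, miR-196a*, miR-99a, miR-99b and miR-100 in each replicate of PYS, L-1210, M1 and CT-BM. Filled points are detected and open triangles undetected replicates, drawn at the Ct limit; miR-99a and miR-99b have filled points in PYS and CT-BM alone, and miR-196a* is highest in PYS.

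A list of 14 haematopoietic progenitor and lineage miRNAs was set beside the members. Of these, 0 were higher and 13 lower in PYS than in CT-BM, with a median log2 fold change of −10.92 against 0.08 over all assays tested, of which 38.7% were lower. In L-1210, 1 was higher and 12 were lower than in CT-BM, with a median of −4.92 against −0.82 and 45.6% of all assays lower. In M1, 2 were higher and 10 lower than in CT-BM, with a median of −2.25 against −0.59 and 44.3% of all assays lower. miR-155, a miRNA of activated lymphocytes and myeloid cells, was higher in both leukaemia lines, 5.25-fold in L-1210 (limma adjusted p = 1.15e-05) and 5.32-fold in M1 (limma adjusted p = 1.14e-05). Folds of single assays of this list rest on the 3 control RNAs, and other scalings were not examined for them. In L-1210 against CT-BM, scaling moved the median of all assays by −1.65 to 1.87, beside a log2 fold change of 2.39 for miR-155. miR-221, which targets the Kit receptor and the cell cycle inhibitor p27, was 14.7-fold higher in M1 (limma adjusted p = 2.56e-07). It was undetected in the other lines, at least 2907-fold lower than CT-BM in L-1210 and at least 2787-fold lower in PYS. miR-222, also on the list, did not pass in M1 (log2 fold change 0.20, limma adjusted p = 0.633). miR-126-3p, a miRNA of endothelium and of blood stem cells, was lower in every line, 10.1-fold in PYS (limma adjusted p = 7.24e-09), 8.74-fold in L-1210 (limma adjusted p = 2.03e-08) and 6.61-fold in M1 (limma adjusted p = 9.34e-08).

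The assays whose levels ran most like each member were found by Pearson correlation over the 12 replicates among 275 assays, as a description only. Levels on a card share its control RNAs, and the replicates fall into 4 groups. For miR-10a these were miR-139-5p (r = 0.986), rno-miR-20b-5p (0.957), miR-467c (0.914) and miR-467b (0.913). miR-139-5p, detected in all 12 replicates, averaged Ct 26.5 in PYS, 16.5 in L-1210, 22.1 in M1 and 18.5 in CT-BM. For miR-10b they were miR-297b-5p (0.996), miR-669a (0.991), miR-20b* (0.980) and miR-297a* (0.980), each detected in the 3 L-1210 replicates alone. With undetected replicates all set to one Ct limit, these correlations rest on presence in L-1210. For miR-196b they were rno-miR-196c (0.997), miR-340-5p (0.981), miR-340-3p (0.970) and miR-16 (0.958). Both miR-340 arms were undetected in L-1210, the group with the latest miR-196b, and earliest in M1, at a mean Ct of 19.7 for miR-340-5p and 21.7 for miR-340-3p.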

How the data were processed

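Per the labels' protocols, total RNA was extracted with a mirVana kit, reverse transcribed, preamplified and run for 40 cycles on TaqMan cards A and B. The values deposited by the authors are the Ct of every well and its mean per assay, per the file headers, in PCR cycles with no scaling to controls. Of 8969 wells, 4334 were undetermined. Software, thresholds and a detection limit are not given in the sources used here. The 24 GEO samples are 12 replicates on a pair of cards, and 1 run without a card in its name was assigned to card A because 100% of its assays are card A assays. No value column was left unused (0 columns). The number of replicates limits the precision.

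Wells of an assay on a card were averaged, and Ct over 35 or undetermined was set to 35. An assay counted as detected only if all its wells were. Levels entered limma 3.58.1 (lmFit and eBayes under R 4.3.3) with 4 group means over 12 replicates. Assays were tested where 1 or both of the groups compared were detected throughout. Folds against an undetected group carry the words at least, while the medians of lists and of all assays take such bounds as values. The Ct limit is a choice made here, and a limit of 32 or 40 moves each bound by exactly as many cycles. Pair tests used Python 3.11.15 with numpy 2.4.6 and pandas 2.3.3, and figures matplotlib 3.10.9. Of the 3 planned pair tests, those with miR-10b rest mostly on bounds and are not given; that of miR-10a and miR-10b could use 9 of 12 replicates. The fits were tested on simulated data in which every assay counted as detected. Bounds from undetected groups were not covered by that test.

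The members, lists and tests were chosen with earlier results of these data known. Assays named are the members, assays named miR-10a, miR-10b, miR-196a, miR-196b or miR-615 of other arms, the miR-99 and miR-100 assays, the 4 most similar to each member, and examples from the lists. The alternatives were 6 other scalings, other Ct limits and detection filters, limma's robust, trended and treat settings, no fold minimum, a fit of only the groups compared, card A alone, replicate number as a block, and each replicate left out.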

Additional observations from a re-analysis of the deposited data

Results flagged for a closer look

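These 4 differences are given because a miRNA moved one way against CT-BM in one line and the other way in another, and limma's direct test between the lines separated them. miR-10a was 3.23 above CT-BM in L-1210 and −5.97 in M1 on the log2 scale, a difference of 9.20 (adjusted p = 3.74e-12). It was −11.42, a bound, in PYS and 3.23 in L-1210, a difference of −14.65 that is also a bound (limma adjusted p = 2.50e-14). miR-196b was −12.30 in L-1210 and 1.66 in M1, a difference of −13.97 (limma adjusted p = 1.47e-11). It was −3.75 in PYS and 1.66 in M1, a difference of −5.41 (limma adjusted p = 1.19e-07). All of these share the CT-BM replicates. No group was tested for single outlying replicates, since groups of 3 are too small for that.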

How the results depend on the processing

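Over the 15 member comparisons, 337 of 339 values from the alternatives kept both direction and call, and 0 reversed. The 2 others were miR-196b in M1 against CT-BM, at 1.35 with snoRNA202 alone and at 1.66 in the treat test, where it no longer passed. With a replicate left out that difference was 1.47 to 1.77 and stayed called in all 6 fits. Counts of called assays moved with the detection filter in most comparisons. With no filter they were 473 in L-1210 against CT-BM (227 as reported), 487 in M1 against CT-BM (226), 349 in L-1210 against M1 (171), 401 in PYS against M1 (250), 379 in PYS against CT-BM (284) and 258 in PYS against L-1210 (258). With only assays detected in both groups they were 174 in PYS against CT-BM (284), 148 in L-1210 against CT-BM, 136 in M1 against CT-BM, 103 in L-1210 against M1, 151 in PYS against L-1210 (258) and 138 in PYS against M1. That filter leaves no value for members with a bound. Card A alone, which holds fewer assays, gave 148 in M1 against CT-BM and 110 in L-1210 against M1. The share of called assays that were higher moved with the scaling, from 14.9% to 63.9% in L-1210 against CT-BM (33.0% as reported), 24.5% to 55.5% in M1 against CT-BM (36.3%) and 37.8% to 66.3% in PYS against CT-BM (50.7%). It moved from 25.4% to 77.9% in L-1210 against M1 (45.0%), 47.4% to 74.8% in PYS against L-1210 (62.4%) and 46.0% to 76.3% in PYS against M1 (62.8%).

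The replicate numbers are not stated to pair the samples. Between replicates of different groups, 3 of 18 correlations with the same number passed 0.1, and 13 of 36 with different numbers. These correlations cannot settle whether replicates shared a run or a preparation. With the replicate block, counts were 229 in L-1210 against CT-BM, 225 in M1 against CT-BM, 283 in PYS against CT-BM, 173 in L-1210 against M1, 256 in PYS against L-1210 and 250 in PYS against M1. miR-196b in M1 against CT-BM was 1.66 with the block (limma adjusted p = 0.0117). The block changed no call of a member. The Ct limit decides only the bounds and miR-196b in L-1210, which was −11.40 against CT-BM at a limit of 32 and −12.30 at 40. Signals later than the limit cannot be told from absence.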
